A study of Mus musculus with 2 samples.

Results

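C3, C4b, C1ra, Cfb and Serping1 are 5 genes of the complement system, 4 that encode components and 1 that encodes an inhibitor. They were taken by symbol from the 27998 gene IDs of the deposited count tables, and each symbol matched 1 ID. Complement is a chain of plasma and tissue proteins that marks surfaces for uptake and lysis. In the classical pathway the proteases C1r and C1s cut C4 and C2, and the resulting enzyme cuts C3, on which all pathways meet. Factor B forms the C3-cutting enzyme of the alternative pathway, and the C1 inhibitor, encoded by Serping1, blocks C1r and C1s. The liver is the main source of the circulating proteins, and fibroblasts, epithelium and other tissue cells also make them.

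Single-cell RNA sequencing was done on lung cells sorted as CD45-, that is without the surface protein of leukocytes, from mice whose lungs were taken 7 days after intravenous injection of labelling 4T1 cells. 4T1 cells come from a mammary tumour of the mouse and grow out in the lung, and the labelling version is known to release an mCherry protein that neighbouring cells take up. Both groups, Cherry_Positive and Cherry_Negative cells, share this injection, and each is 1 library, so that no difference below has a replicate check. Strain, age, number of mice and any irradiation are not given in the labels used here, so a group cannot be placed by them.

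After filtering, the Cherry_Positive library held 1766 cells, with a median of 4348 UMIs (unique molecular identifiers, each counting 1 captured RNA molecule), and the Cherry_Negative library 2804 cells with a median of 3000.5. Ptprc, which encodes CD45, had a UMI in 1.42% of Cherry_Positive and 0.785% of Cherry_Negative cells, so the sort left few leukocytes. The libraries shared 13 cell barcodes. Cells were grouped into 26 clusters without any complement gene, and clusters were named from marker genes, each name meaning cells like that type. Mesenchymal cells made up 73.9% of Cherry_Positive and 27.4% of Cherry_Negative cells, and endothelial cells 13.9% and 51.5%. Shares of cells follow the sort, and levels are therefore given within classes, as UMIs of a gene scaled to 1000000 UMIs of the class (CPM). Class sums carry 95% intervals for counting error only, which leave out the spread between mice and between cells. Since each molecule is counted once from its end, CPM was not divided by gene length, and levels of different genes are not compared.

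On the GRCm38 build with GENCODE M21, C1ra lies on the plus strand of chromosome 6 at 124512405 to 124523443, with 11 exons in its longest coding transcript. Serping1 lies on the minus strand of chromosome 2 at 84765387 to 84775444, with 8 exons. The other 3 genes are on the minus strand of chromosome 17, C4b at 34728380 to 34743882 with 41 exons, Cfb at 34856374 to 34862518 with 18 exons, and C3 at 57203970 to 57228136 with 41 exons. C4b and Cfb lie 112491 bases apart, and 85 bases separate Cfb from C2, its counterpart in the classical pathway.

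Promoters were looked up for all 5 genes, each higher in Cherry_Positive alveolar fibroblasts, and are shown where found. A list of interferon gamma targets and a list of interleukin 6, NF-kB and acute phase genes were higher there too. The RefSeq table (GRCm38.p6) held 2 of the 5 promoters, each running from 250 bases before to 50 bases after the start site, and those of C4b, Cfb and Serping1 are not shown. The C1ra window is chr6:124512371-124512670 on the plus strand and the C3 window is chr17:57228087-57228386 on the minus strand, both written 5′ to 3′ with motif matches in capitals. The RefSeq start of C1ra lies 216 bases downstream of the GENCODE start of the gene, so most of its window is inside the gene as placed above, and positions below count from the RefSeq start. For C3 both starts are the same base.
C1ra: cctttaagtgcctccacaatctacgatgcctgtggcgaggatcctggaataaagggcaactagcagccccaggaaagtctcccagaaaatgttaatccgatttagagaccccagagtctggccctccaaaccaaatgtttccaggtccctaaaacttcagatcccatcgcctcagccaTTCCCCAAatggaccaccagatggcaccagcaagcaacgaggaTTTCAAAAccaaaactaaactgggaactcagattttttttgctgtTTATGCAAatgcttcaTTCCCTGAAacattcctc
C3: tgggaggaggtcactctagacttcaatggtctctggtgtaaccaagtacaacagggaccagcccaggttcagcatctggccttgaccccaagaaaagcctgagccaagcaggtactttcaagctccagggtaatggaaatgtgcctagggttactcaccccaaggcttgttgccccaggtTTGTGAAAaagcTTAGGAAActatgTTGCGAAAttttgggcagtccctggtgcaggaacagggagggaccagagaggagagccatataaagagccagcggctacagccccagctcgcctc
The 4 motifs searched, on both strands, are binding letters of factors that these signals are known to act through. The STAT motif TTCNNNGAA matched once in C1ra, from base 32 to base 40 after the start site, and not in C3, and 8.3% of 32851 promoters of the same length hold it. The C/EBP motif TTNNGNAA matched at 3 places in each promoter, in C3 starting at positions -70, -58 and -45 from the start site, and 40.7% of promoters hold it, so a match is common. The interferon-stimulated response element, read as GAAA, 2 further bases and GAAA again, held by 3.44% of promoters, and the NF-kB consensus, held by 4.51%, matched in neither. No match overlapped one of another motif.

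In alveolar fibroblasts, the matrix and lipid-storing fibroblasts of the alveolar wall, all 5 genes were higher in the Cherry_Positive library, where 41.8% of the genes measured were higher by any size. The class held 614 Cherry_Positive and 426 Cherry_Negative cells. Its 12 marker genes summed to 14238 CPM in Cherry_Positive and 34867 CPM in Cherry_Negative cells, so the cells compared were not alike in their markers. At least 10 UMIs over both libraries were counted for 10996 genes, of which 7.47% were at least 2-fold higher in Cherry_Positive cells, and 3 of the 5 complement genes, Cfb, C3 and C1ra, were past that size. The median log2 ratio over all these genes was -0.14, and scaling by a trimmed mean of genes would raise each log2 ratio by 0.13.

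C1ra, the mouse C1r protease that starts the classical cascade, had 689.7 CPM in Cherry_Positive and 307 CPM in Cherry_Negative alveolar fibroblasts, from 2243 and 448 UMIs. Its ratio was 2.24, with a 95% interval of 2.03 to 2.49, so the difference was larger than counting error. C1rb, a near copy with 98.1% identity over the aligned transcripts, had 409 CPM in Cherry_Positive and 226 CPM in Cherry_Negative cells, a ratio of 1.81. Over the last 500 bases of C1ra, nearer to where these libraries count a molecule, 36.4% aligned to C1rb. How reads were divided between the copies was not tested, so the C1ra level is uncertain.

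Serping1, which encodes the plasma inhibitor of C1r and C1s, had 2684 CPM in Cherry_Positive and 2175 CPM in Cherry_Negative alveolar fibroblasts. The ratio of 1.23 (1.18 to 1.29) was off 1 but the lowest of the 5. It was 1.08 (1.03 to 1.12) when an unnamed mesenchymal cluster, described below, was placed in the class.

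C4b, the C4 protein that C1s cuts, had 414 CPM in Cherry_Positive and 208 CPM in Cherry_Negative alveolar fibroblasts, a ratio of 1.99 (1.76 to 2.26). C4a, whose transcript is 96.2% identical to that of C4b, has no row of its own in the count tables, so whether its reads were counted as C4b cannot be told. C3, the protein on which all pathways meet, had 1346 CPM in Cherry_Positive and 435 CPM in Cherry_Negative cells, a ratio of 3.09 (2.85 to 3.37).

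Cfb, which encodes the factor B protease, had 339 CPM in Cherry_Positive and 60.3 CPM in Cherry_Negative alveolar fibroblasts, from 1101 and 88 UMIs. Its ratio of 5.61 (4.51 to 7.05) was the highest of the 5. A read-through gene, Gm20547, shares 79.5% of the exonic bases of Cfb and 42.8% of those of C2 on the same strand, and it had 0 UMIs in all cells of both libraries. How reads in the shared exons were assigned is not given in the sources used here, so the level of Cfb is uncertain.

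**Figure D1:**
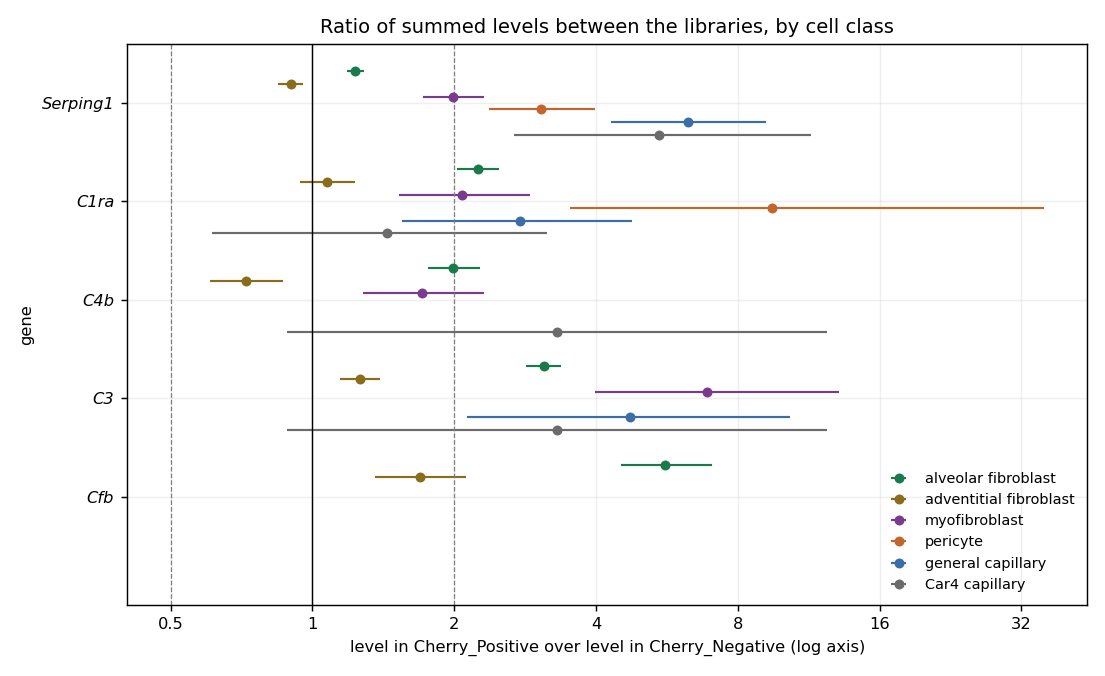
Ratio of the class level in Cherry_Positive over Cherry_Negative cells on a log axis, for each gene (rows) and each of the 6 compared classes (colours), where both libraries had at least 4 UMIs. Points are ratios of summed counts and lines are 95% counting intervals. Cfb and C3 in alveolar fibroblasts sit at 5.61 and 3.09, and C4b and Serping1 in adventitial fibroblasts sit below 1, at 0.724 and 0.900.

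The summed level of the 5 genes was 5472 CPM in Cherry_Positive and 3185 CPM in Cherry_Negative alveolar fibroblasts. Serping1 gave 49.1% of these UMIs in Cherry_Positive and 68.3% in Cherry_Negative cells, while C3 gave 24.6% and 13.6% and Cfb gave 6.19% and 1.89%. Serping1 was itself higher in Cherry_Positive cells, by less than the other 4, and the shares hold for these 5 genes alone.

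Different clusters held most of the class in the libraries. The cluster led by Slc7a10, Tcf21 and Mfap4 held 122 Cherry_Positive and 325 Cherry_Negative cells. The cluster led by Tnfsf13b, Steap4 and Rbp4 held 204 and 94, and the cluster led by Cxcl10, Saa3 and Ccl2 held 288 and 7. In the Slc7a10 cluster C4b was at 195 CPM in Cherry_Positive and 60.9 CPM in Cherry_Negative cells, C3 at 500.1 and 244 CPM, and Cfb at 71.7 and 29.5 CPM. All 5 genes were higher in the Cherry_Positive cells of that cluster and of the Tnfsf13b cluster, against 47.2% and 48.1% of all genes measured in them.

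In the Tnfsf13b cluster C3 was at 1725 CPM in Cherry_Positive and 878 CPM in Cherry_Negative cells, C1ra at 826 and 433 CPM, C4b at 766 and 584 CPM, Cfb at 286 and 129 CPM, and Serping1 at 2658 and 2308 CPM. C4b was at 766 CPM in this cluster of the Cherry_Positive library but at 259.9 CPM in the Cxcl10 cluster, so the gene set did not vary as 1 block. Cfb stood the other way, at 447 CPM in the Cxcl10 cluster against 286 CPM in the Tnfsf13b cluster. C1ra was at 677 CPM and C3 at 1353 CPM in the Cxcl10 cluster, both below the Tnfsf13b cluster.

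Listed interferon gamma target genes summed to 20634 CPM in the Cherry_Positive cells of the Cxcl10 cluster, 2164 CPM in those of the Tnfsf13b cluster and 1812 CPM in those of the Slc7a10 cluster. Listed interleukin 6, NF-kB and acute phase genes summed to 26437 CPM in the Cxcl10 cluster, 15773 CPM in the Tnfsf13b cluster and 5429.7 CPM in the Slc7a10 cluster. The first list holds Cxcl9 and Cxcl10 and the second Saa3 and Ccl2, all leading genes of the Cxcl10 cluster. The second also holds Steap4, a leading gene of the Tnfsf13b cluster. High sums in these clusters are thus partly set by the genes that mark them. Over the whole class, 17 of 17 measured interferon gamma targets were higher by any size in Cherry_Positive cells, where 41.8% of all genes were, with a median log2 ratio of 2.31, and 10 of 12 of the other list, with a median of 1.23. Their part in the complement levels was not tested.

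With both libraries set to the cluster mix of the Cherry_Negative cells, the ratio was 2.31 for Cfb, 1.98 for C3, 1.80 for C1ra, 1.72 for C4b and 1.15 for Serping1. At the cluster mix of the Cherry_Positive cells, which gives weight to the 7 Cherry_Negative cells of the Cxcl10 cluster, it was 2.48 for Cfb, 1.74 for C3, 1.42 for C1ra, 1.92 for C4b and 1.18 for Serping1. Each gene was thus still higher in Cherry_Positive cells at either mix, by less than over the whole class. The largest step was that of Cfb, from the whole-class ratio of 5.61.

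**Figure D2:**
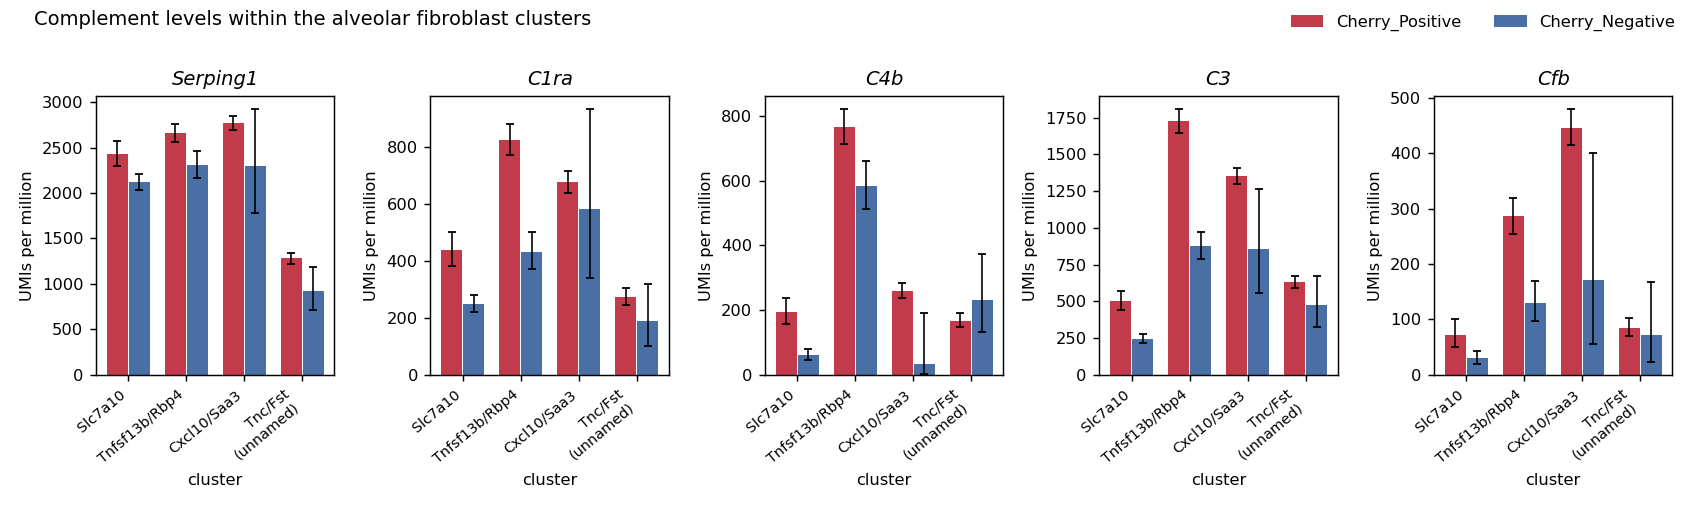
Level of each gene in CPM (bars from 0) in the 3 alveolar fibroblast clusters and in the unnamed Tnc and Fst cluster, for Cherry_Positive (left bar) and Cherry_Negative cells (right bar), with 95% counting intervals. C4b is highest in the Tnfsf13b and Rbp4 cluster and Cfb in the Cxcl10 and Saa3 cluster, where the Cherry_Negative library has only 7 cells.

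A further cluster, led by Tfpi2, Tnc, Hmox1 and Fst, held 251 Cherry_Positive and 26 Cherry_Negative cells. It was mesenchymal and by its markers closest to the alveolar fibroblasts. It was left unnamed because its 10 leading genes held none of their markers and 1 gene listed for another lineage, Eln. The marker list used here places Eln under venous cells, while 12 alveolar fibroblast markers were detected in the cluster. The Cxcl10 cluster, which kept the name, held neither among its leading genes, so that the line between the clusters rests on 1 gene. Its fit to the name was weaker, with 10 alveolar fibroblast markers detected. The mean level of these markers, relative to the highest cluster, was 0.223 there, 0.322 in the unnamed cluster and 0.977 in the Slc7a10 cluster. Complement levels in the Cherry_Positive cells of the unnamed cluster were below those of the alveolar fibroblast class. They were 629 CPM for C3, 274 CPM for C1ra, 167 CPM for C4b, 85.2 CPM for Cfb and 1279.5 CPM for Serping1. Its 26 Cherry_Negative cells gave 476 CPM for C3 and 924 CPM for Serping1, and of the 5 genes only Serping1 had a ratio interval off 1, at 1.39 (1.08 to 1.81). Placed in the alveolar fibroblasts, the cluster moved the class ratios to 4.36 for Cfb, 2.61 for C3, 1.89 for C1ra and 1.64 for C4b, and C1ra was then below 2-fold.

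Within single cells the genes were found together more often in the Cherry_Positive library. Each cell was thinned to 2000 UMIs, which left out 9 of the Cherry_Positive and 51 of the Cherry_Negative alveolar fibroblasts. C3 then had a UMI in 74.9% of Cherry_Positive and 35.2% of Cherry_Negative cells, C1ra in 64.1% and 36.5%, C4b in 43.1% and 21.1%, and Cfb in 32.1% and 8.27%. Serping1 had one in 96.5% and 95.2%, so that nearly every alveolar fibroblast of both libraries carried it.

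Before thinning these shares were 87.3% and 44.6% for C3, 82.7% and 52.6% for C1ra, 62.2% and 27.7% for C4b, 51.6% and 12.4% for Cfb, and 99.5% and 97.9% for Serping1, in Cherry_Positive and Cherry_Negative cells with median depths of 4661 and 3138 UMIs. In general capillary cells, which should hold little of these genes, thinned shares were at most 7.32% for C3, C1ra, C4b and Cfb in the Cherry_Positive library, and 22.8% for Serping1. In the Cherry_Negative library, none of the 5 was above 3.71% there. The median depth of these capillary cells was 3048.5 UMIs for Cherry_Positive and 2261.5 for Cherry_Negative cells.

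All 5 genes were seen in 11.1% of the thinned Cherry_Positive and 0.80% of the thinned Cherry_Negative alveolar fibroblasts, and 4 of the 5 in 30.2% and 8.53%. The median Cherry_Positive cell held 3 of the genes and the median Cherry_Negative cell 2. C3 and C4b were found in the same cell in 35.5% of Cherry_Positive cells, where the product of the single shares is 32.3%, and in 12.5% of Cherry_Negative cells, where the product is 7.42%. C1ra and Cfb went together in 24.5% of Cherry_Positive cells, where the product is 20.6%, and in 3.20% of Cherry_Negative cells, where it is 3.02%. Over the 6 pairs without Serping1, the share found together over the product ran from 1.09 to 1.19 in Cherry_Positive and from 1.06 to 1.83 in Cherry_Negative cells. The cells share a library and a cluster structure, so this is a description with no test.

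**Figure D3:**
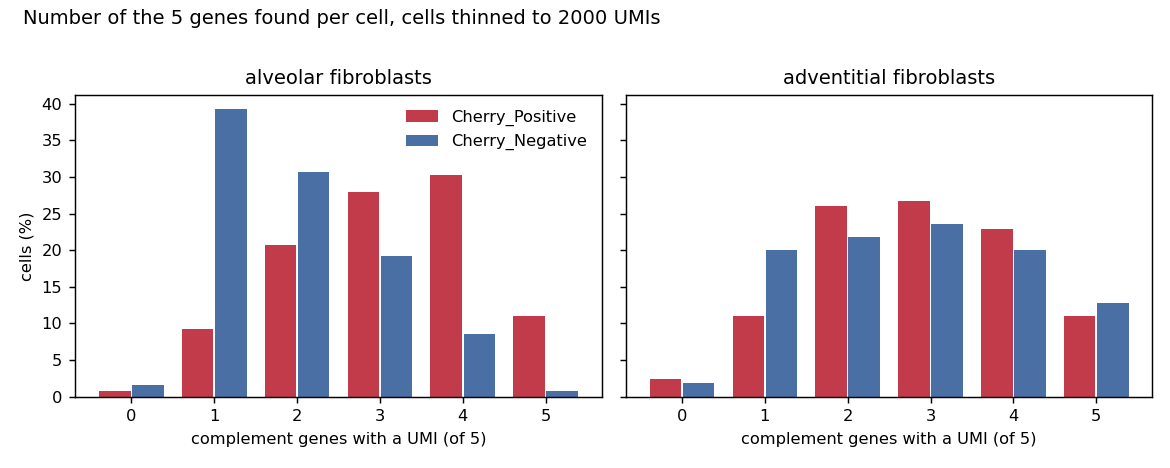
Share of cells (%) by the number of the 5 complement genes with at least 1 UMI, for Cherry_Positive (left bar) and Cherry_Negative cells (right bar) thinned to 2000 UMIs, in alveolar fibroblasts (605 and 375 cells) and adventitial fibroblasts (127 and 110 cells). Cherry_Positive alveolar fibroblasts peak at 4 genes and Cherry_Negative ones at 1 gene, and adventitial fibroblasts peak at 3 genes in both.

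No single alveolar fibroblast carried more than 2.27% of a gene's UMIs in the Cherry_Positive class, against up to 10.2%, 9 of 88 UMIs of Cfb, in the Cherry_Negative class.

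Adventitial fibroblasts, which surround larger vessels and airways, differed less between the libraries. The class held 127 Cherry_Positive and 114 Cherry_Negative cells. None of the 5 genes was 2-fold higher, against 5.74% of 8778 genes, and none 2-fold lower, against 7.55%. The summed level of the 5 was 5729.8 CPM in Cherry_Positive and 5696 CPM in Cherry_Negative cells, a sum over genes that went in opposite directions, as given below.

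In these cells C4b was at 309 CPM in Cherry_Positive and 427 CPM in Cherry_Negative cells, a ratio of 0.724 (0.605 to 0.867), and Serping1 was at 2978 and 3309.8 CPM, a ratio of 0.900 (0.847 to 0.956). By summed level both were thus lower in Cherry_Positive adventitial fibroblasts and higher in Cherry_Positive alveolar fibroblasts. The share of adventitial cells with C4b was 60.6% in Cherry_Positive and 48.2% in Cherry_Negative cells, at median depths of 6108 and 4477.5 UMIs. After thinning it was 33.1% and 36.4%, lower in Cherry_Positive cells like the level, but with overlapping intervals. A single cell gave 7.98% of the C4b UMIs in the Cherry_Positive and 13.1% in the Cherry_Negative class. Whether the ratios of the classes differ cannot be tested with 1 library each. Cfb was at 347 CPM in Cherry_Positive and 205 CPM in Cherry_Negative cells, a ratio of 1.69 (1.36 to 2.12), and C3 was at 1424 and 1129 CPM, a ratio of 1.26 (1.14 to 1.39). C1ra, at 672 and 625 CPM, had a ratio of 1.08 whose interval of 0.940 to 1.23 held 1. Of the interferon gamma targets 16 of 17 were higher by any size in this class, with a median log2 ratio of 1.47. Of the interleukin 6, NF-kB and acute phase list 8 of 12 were, with a median of 0.31, where 46.6% of all genes were higher.

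Myofibroblasts, contractile cells of the alveolar ducts marked here by Aspn and Hhip, numbered 244 Cherry_Positive and 134 Cherry_Negative cells, and 9.29% of 8818 genes were at least 2-fold higher in Cherry_Positive cells. C3 was at 247 CPM in Cherry_Positive and 35.8 CPM in Cherry_Negative cells, a ratio of 6.89 (3.97 to 13.1) that rested on 309 and 13 UMIs. C1ra was at 264 and 127 CPM, a ratio of 2.08 (1.52 to 2.90), and Serping1 at 1146 and 576 CPM, a ratio of 1.99 (1.72 to 2.31). C4b, at 259 and 152 CPM, had a ratio of 1.71 (1.28 to 2.32). Cfb had 23 UMIs in Cherry_Positive and 1 in Cherry_Negative cells, a ratio of 6.67 with an interval from 1.08 to 275.

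Pericytes, the mural cells of capillaries, numbered 62 Cherry_Positive and 50 Cherry_Negative cells, and 9.64% of 5051 genes were at least 2-fold higher. Only C1ra and Serping1 reached 10 UMIs. Serping1 was at 1685 CPM in Cherry_Positive and 553 CPM in Cherry_Negative cells, a ratio of 3.05 (2.37 to 3.98). C1ra was at 289.8 and 30.7 CPM, a ratio of 9.44 (3.52 to 35.7) against only 4 Cherry_Negative UMIs. C3 had 5 and 1 UMIs, C4b 7 and 1, and Cfb 7 and 0, too few to show a difference at this depth.

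**Figure D4:**
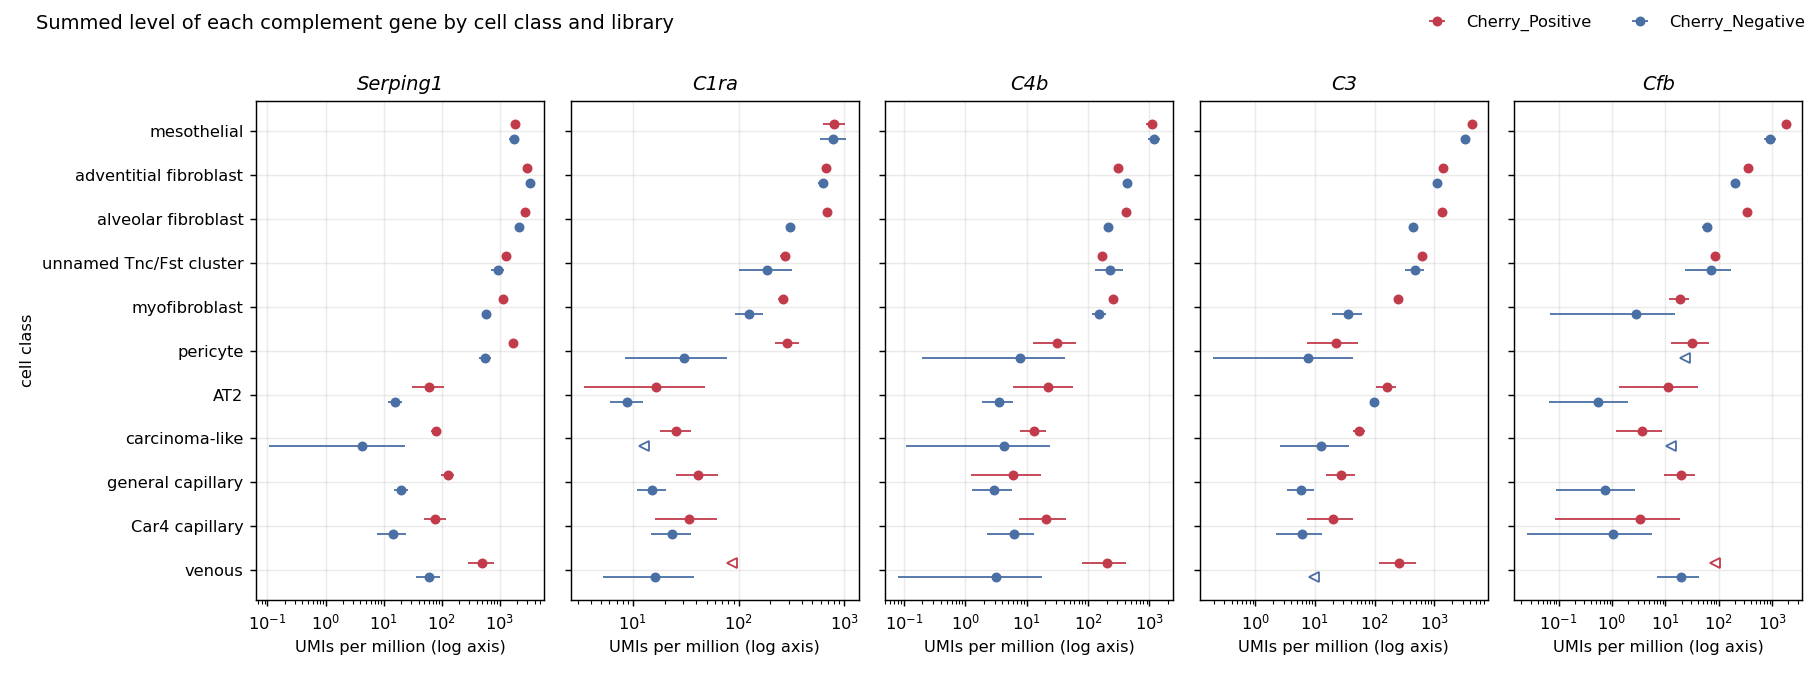
Level of each gene in CPM on a log axis, by cell class (rows), for Cherry_Positive (upper point) and Cherry_Negative cells (lower point), with 95% counting intervals. Open triangles mark classes with 0 UMIs and are drawn at the limit of 3 counts. Fibroblasts and mesothelial cells sit at the right of each panel and capillary cells toward the left. Myofibroblasts sit near fibroblasts for C4b but far below them for Cfb. The 7 Cherry_Positive venous cells reach 259 CPM for C3 and 489 CPM for Serping1, of which 1 cell gave 88.9% and 94.1%.

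Over all classes, mesenchymal cells gave between 88.2% (Cfb) and 96.8% (Serping1) of a gene's UMIs in the Cherry_Positive library and between 67.0% (C3) and 93.2% (Serping1) in the Cherry_Negative library. Mesothelial cells, the lining of the lung surface, numbered only 11 Cherry_Positive and 12 Cherry_Negative cells. They had the highest C3, at 4369 CPM in Cherry_Positive and 3335 CPM in Cherry_Negative cells. They also had the highest Cfb, at 1803 and 923 CPM, and the highest C4b, at 1084 and 1206 CPM, among the classes drawn in the plot of levels by class. A few cells with many UMIs weigh heavily here, as 25% of the Cherry_Positive Cfb UMIs came from 1 cell.

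Among the named classes drawn there, adventitial and alveolar fibroblasts came next for C3 and Cfb. In the Cherry_Negative library the unnamed Tnc and Fst cluster, at 476 CPM for C3 and 72.2 CPM for Cfb, overlapped the alveolar fibroblasts. In the Cherry_Positive library their intervals overlapped for C3, C1ra and Cfb, so that their order is not set, while in the Cherry_Negative library adventitial fibroblasts were above alveolar fibroblasts for all 5 genes with intervals apart. Serping1 was highest in adventitial fibroblasts of both libraries. Myofibroblasts and pericytes of the Cherry_Negative library overlapped for Serping1, at 576 and 553 CPM.

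Type 2 alveolar cells (AT2), the surfactant-making epithelium, carried C3 and little of the other 4. C3 was at 161 CPM in 22 Cherry_Positive and 98.1 CPM in 448 Cherry_Negative cells, from 29 and 364 UMIs. A single Cherry_Positive cell gave 44.8% of the 29 UMIs. C3 had a UMI in 45.8% of the Cherry_Negative cells, or 14.8% after thinning, against 1.13% of thinned general capillary cells. AT2 cells gave 18.6% of all C3 UMIs of the Cherry_Negative library. The C3 level there was 22.6% of the alveolar fibroblast level, while the collagen genes Col1a1, Col1a2 and Col3a1 were at 1.34% to 1.58% of theirs. Carcinoma-like cells, 129 in the Cherry_Positive library, were at 55.1 CPM for C3 and 79.4 CPM for Serping1. For each gene 1 cell weighed heavily, with 14.7% of these C3 and 31.5% of these Serping1 UMIs. How much of these low levels was RNA from other cells was not tested.

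General capillary endothelial cells numbered 130 Cherry_Positive and 996 Cherry_Negative cells, and 4.52% of 10093 genes were at least 2-fold higher in Cherry_Positive cells. Serping1 was at 127 CPM in Cherry_Positive and 20.2 CPM in Cherry_Negative cells, from 64 and 55 UMIs, a ratio of 6.27 (4.30 to 9.16). C1ra was at 41.6 and 15.1 CPM, a ratio of 2.76 (1.55 to 4.78). C3 had 14 and 16 UMIs, Cfb 10 and 2, and C4b 3 and 8, so that their ratios of 4.71, 26.9 and 2.02 rest on few molecules.

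Fibroblast collagen genes were set beside these low levels as a reading of RNA from other cells. The 3 collagen genes named above were in general capillary cells at 1.49% to 1.72% of their alveolar fibroblast level in the Cherry_Positive library and at 0.754% to 1.32% in the Cherry_Negative library. Serping1 was at 4.73% and 0.93% of its fibroblast level, above the collagen genes in Cherry_Positive cells alone. C1ra was at 6.04% and 4.91%, above them in both libraries, and C4b, at 1.44% and 1.42%, was not. Cfb was at 5.85% (2.81% to 10.8%) on 10 UMIs in the Cherry_Positive library, above the collagen genes, and at 1.22% on 2 UMIs in the Cherry_Negative library. C3, at 2.06% and 1.35%, had an interval of 1.13% to 3.46% in the Cherry_Positive library that held the collagen values. With 5% of each class taken as library-wide free RNA and subtracted, no level above 0 was left for Cherry_Negative Serping1, C3, C4b or Cfb in this class. None was left for Cherry_Positive C3 or C4b either, so no ratio can be given for these 4 genes, and C1ra kept one. The library-wide levels themselves differed, with Cherry_Positive over Cherry_Negative ratios of 3.08 for Serping1, 4.20 for C1ra, 4.37 for C3, 3.64 for C4b and 7.13 for Cfb. Within the capillary cluster led by Ido1 and Ubd, 35 Cherry_Positive and 69 Cherry_Negative cells, Serping1 was at 268 and 84.8 CPM. Car4 capillary cells (82 and 309) had Serping1 at 77.9 and 14.3 CPM, a ratio of 5.43 (2.68 to 11.4), with 4.27% of 8259 genes at least 2-fold higher. Serping1 was there at 2.90% of its fibroblast level in the Cherry_Positive library, among the collagen genes at 0.847% to 3.51%, and at 0.659% in the Cherry_Negative library, below them at 1.05% to 1.38%. The same subtraction left no Cherry_Negative level of Serping1 in Car4 capillary cells either, so Serping1 there was not above the reading of RNA from other cells. The other 4 genes had 1 to 10 UMIs there in the Cherry_Positive library.

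Of 51 further complement genes on a list by role, 14 were measured in alveolar fibroblasts. C2, which C1s cuts beside C4, and C1s1, the C1s protease, were at least 2-fold higher in Cherry_Positive cells, against 7.47% of all genes. Cfp, the gene for properdin, was at least 2-fold lower, as 9.40% of all genes were, on 5 UMIs in each library and with an interval of 0.103 to 1.95 that held 1. The median log2 ratio of the 14 was -0.03, beside -0.14 over all genes.

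C2 was at 169 CPM in Cherry_Positive and 65.1 CPM in Cherry_Negative alveolar fibroblasts, a ratio of 2.60. C1s1 was at 517 and 255 CPM, a ratio of 2.03, and its copy C1s2 at 163 and 83.7 CPM, a ratio of 1.95. The C1s1 and C1s2 transcripts are 96.1% identical where aligned. As for C1ra and C1rb, how reads were divided between them was not tested, so copies are not separate readings. Thus C1ra, C1rb, C1s1, C1s2, C4b and C2 lay between 1.81 and 2.60, while C1rl, a C1r-like protease, was at 0.913 on 57 and 28 UMIs. Cd59a, which blocks the lytic pore, was at 156 and 204 CPM, a ratio of 0.765. Cr1l, which encodes the membrane regulator Crry, was at 63.3 and 83.7 CPM, a ratio of 0.757, and Colec12, a scavenger receptor of the collectin family, was at 318 and 403 CPM, a ratio of 0.788. Scaling by the trimmed mean turned none of these directions. C6, C7, C1rl, Clu, Cd55 and Cd59b stayed under 50 CPM in this class and within 2-fold, and each of their ratio intervals held 1.

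**Figure D5:**
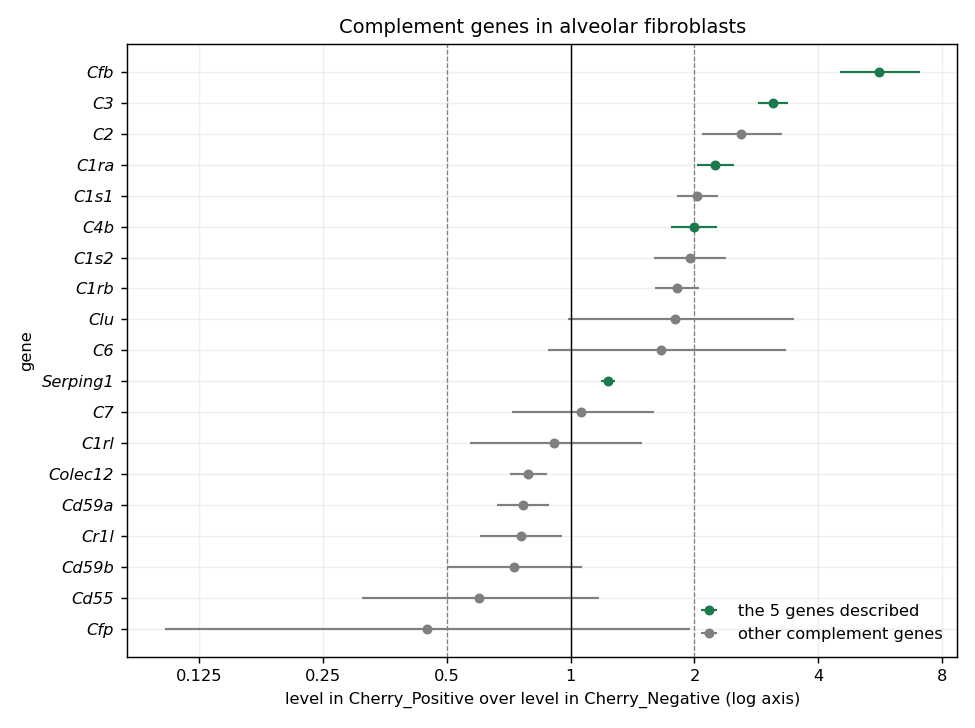
Ratio of the level in Cherry_Positive over Cherry_Negative alveolar fibroblasts on a log axis for the 5 genes described (green) and the 14 other measured complement genes (grey), with 95% counting intervals. Cfb, C3, C2 and C1ra lie at the top, above 2, and the regulators Cd59a and Cr1l lie at 0.765 and 0.757.

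In myofibroblasts 4 of 11 measured list genes were at least 2-fold higher, where 9.29% of all genes were, among them C1s1 at 159 CPM in Cherry_Positive and 27.6 CPM in Cherry_Negative cells and C1s2 at 50.4 and 11.0 CPM. The others, named after their values were seen, were C1rb and C1rl, the second on 14 and 2 UMIs. The 1 gene at least 2-fold lower, as 11.4% of all genes were, was Cd59b on 9 and 6 UMIs, and the intervals of C1rl and Cd59b held 1. Csmd1, a membrane regulator, was at 110 CPM and 68.9 CPM there. In adventitial fibroblasts 0 of 10 were past 2-fold either way, against the 5.74% higher and 7.55% lower given above. In pericytes 2 of 6 were at least 2-fold higher, where 9.64% of all genes were, C1rb and C2, the second with 30 and 0 UMIs. In the same cells 1 was at least 2-fold lower, where 11.6% of all genes were, Vtn, which encodes vitronectin, at 259 CPM in Cherry_Positive and 599 CPM in Cherry_Negative cells. In general capillary cells 3 of 8 were at least 2-fold higher, where 4.52% of all genes were, Clu, which encodes clusterin, at 101 and 41.6 CPM, with C1s1 and C1rb. Cd55 had 0 Cherry_Positive and 12 Cherry_Negative UMIs there and Hc 0 and 11, and the ratio intervals of both held 1, so no difference could be shown at this depth. In Car4 capillary cells, where Clu was at 454 and 451 CPM, 0 of 3 were past 2-fold, where 4.27% of all genes were at least 2-fold higher and 8.38% lower. The receptors C3ar1, C5ar1, C5ar2 and Cr2 reached 10 UMIs in none of the 6 compared classes. Hc, which encodes C5, was at 444 CPM in Cherry_Negative AT2 cells, and C6 at 74.9 CPM.

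The pattern of each gene was set beside that of 6668 genes over 25 sums of 16 clusters by library, as Pearson's r of log2(CPM + 10). The clusters of a library share cells of 1 preparation, so r is a description. C1ra was most like C1rb (r = 0.989), the near copy that may share its reads, and C1s1 (0.952), and then Serping1. Serping1 was most like C1s1 (0.965) and Lrp1 (0.962). C4b was most like Tnfsf13b (0.964), Gas7 and Kcne4, C3 was most like Serpina3n (0.933), Steap4 and Bicc1, and Cfb was most like Mmp19 (0.899), Ms4a4d and Serpina3n. The remaining ones were C1s2 and Lrp1 for C1ra, C1s2, Col1a2 and Pcolce for Serping1, Igf1 and Mdk for C4b, Cpxm1 and Prrx1 for C3, and Ifi27l2a and Cpz for Cfb. Among the 5 genes themselves r ran from 0.804 (C3 and Serping1) to 0.938 (C1ra and Serping1).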

How the data were processed

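For each of 2 mouse lung libraries the authors deposited UMI counts per gene and cell barcode, from Chromium 3′ libraries per the labels' protocols. Per the submitters' processing notes, Cell Ranger 2.1.1, R 4.0.3, Seurat 4.0.2 and mm10 were used, and no settings beyond these names are known. The Cherry_Positive matrix held 1826 barcodes and 10094853 UMIs, the Cherry_Negative matrix 2861 and 11632459.

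A barcode was kept with at least 500 genes and at most 10% of its UMIs mitochondrial, which dropped 56 Cherry_Positive and 50 Cherry_Negative barcodes. Scrublet (scanpy 1.11.5) marked 4 (0.226%) and 7 (0.249%) further ones as doublets, and these were dropped. At so low a rate the caller is taken not to have worked, and doublets may remain among the cells. Leiden clustering (leidenalg 0.10.2, resolution 1) of both libraries in one graph used 15 neighbours in 30 components of 2000 variable genes, with every complement gene left out.

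Names came from 29 marker classes. A name needed at least 3 markers present in 10% of a cluster's cells and at 10% of the best cluster's level, and could not stand where the 10 leading genes held more markers of another lineage. This rule was set after the clusters had been seen. The comparison took the 6 classes that reached 50 cells in both libraries. UMIs were summed per class and library, with exact Poisson intervals for levels, exact binomial ones for shares of cells, and the matching conditional interval for ratios. With 1 library per group there is no test, no p-value and no SD. The 5 genes, the complement list and the context lists were chosen with earlier results of these data known.

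The 5 genes were named in every class. Other complement genes were named where a ratio reached 2-fold in alveolar fibroblasts or general capillary cells, or a level reached 50 CPM in a class of at least 50 cells. Of the list, 1 gene is not reported here and is left out of its counts. Protein sequences were not used here, and transcript identity from GENCODE M21 was taken in their place. Promoters are those of RefSeq (GRCm38.p6). Ratios and intervals were tested on simulated Poisson counts of class sums. These hold no spread between cells or mice, so the run checks the calculation alone. The work ran in Python 3.11.15 (pandas 2.3.3, scipy 1.17.1, numpy 2.4.6), with figures by matplotlib 3.10.9. Alternatives covered the cell filter, doublets, resolution, complement genes in clustering, separate clustering, free RNA, scaling, thinning, weighting and the highest cell.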

Additional observations from a re-analysis of the deposited data

Results flagged for a closer look

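C4b and Serping1 stood higher in Cherry_Positive than in Cherry_Negative cells in alveolar fibroblasts and lower in adventitial fibroblasts. The C4b ratio was 0.724 in adventitial and 1.99 in alveolar fibroblasts, and the Serping1 ratio was 0.900 and 1.23. All 4 counting intervals lay off 1. Counting intervals off 1, C4b was higher in 2 of the 6 compared classes and Serping1 in 5, and each was lower in adventitial fibroblasts alone. The Serping1 count includes general capillary and Car4 capillary cells, where levels were low and subtracting 5% free RNA left no ratio. In adventitial fibroblasts C4b had a UMI in 60.6% of Cherry_Positive and 48.2% of Cherry_Negative cells, at median depths of 6108 and 4477.5 UMIs. After thinning, the shares were 33.1% and 36.4%, lower in Cherry_Positive cells like the summed level, but with overlapping intervals. The difference between the classes was not tested, since each class has 1 library per group. Over 12 other settings of the processing the adventitial log2 ratio ran from -0.62 to -0.20 for C4b and from -0.22 to -0.11 for Serping1.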

How the results depend on the processing

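In alveolar fibroblasts all 5 genes were higher in Cherry_Positive cells under each of the 17 alternatives run (12 planned, 5 chosen after seeing the data), and 43 of the 85 log2 ratios stayed inside the counting interval of the reported value. Where not stated, values below are log2 ratios for Cfb, C3, C1ra, C4b and Serping1 in that order. They were 2.17, 1.44, 0.97, 0.77 and 0.13 at resolution 0.5, and 2.14, 1.40, 0.92, 0.71 and 0.11 with complement genes used in clustering. The 5 later alternatives gave 2.13, 1.38, 0.92, 0.72 and 0.11 with the Tnc and Fst cluster in the class, 1.21, 0.99, 0.85, 0.78 and 0.20 at the Cherry_Negative cluster mix, 1.31, 0.80, 0.51, 0.94 and 0.24 at the Cherry_Positive cluster mix, 1.28, 1.04, 0.83, 1.68 and 0.20 in the Slc7a10 cluster, and 1.15, 0.97, 0.93, 0.39 and 0.20 in the Tnfsf13b and Rbp4 cluster. Thinned cells gave 1.81 for C3, 1.44 for C1ra and 1.32 for C4b, equal weights for cells gave 1.88 for C3 and 1.30 for C4b, trimmed mean scaling gave 1.76 for C3 and 0.43 for Serping1, and separate clustering gave 0.36 for Serping1. Apart from the alternatives that restrict or refill the class, the cause was not tested. In the other classes 9 of 270 ratios left their interval, but some of these intervals were wide. For Cfb in Car4 capillary cells it ran from a ratio of 0.042 to 260. Staying inside so wide an interval does not show stability. C1ra in Car4 capillary cells, with an interval that held 1, turned to -0.36 with free RNA subtracted. A further 18 of 348 planned ratios had no value because a count was 0 or the subtraction left nothing. The share of genes at least 2-fold higher in alveolar fibroblasts was 16.6% over genes with at least 1 UMI and 6.08% with at least 30. With 1 CPM added, 1 of the 5 genes most like C3 stayed, 2 for Cfb, 3 for C4b, 3 for C1ra and 4 for Serping1. With 1 library per group, no replicate could be left out. No paired analysis was possible because the groups share only 1 replicate number.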
